A study of Mus musculus with 4 samples.

Results

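Accessible chromatin of EpRas cells treated with TGF-β was compared between cells transfected with the first pair of siRNAs against Etv4 and Etv5 (siEtv4/5 set 1) and cells transfected with control siRNA (siControl). EpRas cells are mouse mammary gland epithelial cells that express active H-Ras, and every group of the series carries this transgene. Both groups received 1 ng/ml of TGF-β3 for 4 days. Set 1 consists of MSS237548 and MSS272298. The series also holds siControl cells left untreated for the same 4 days and TGF-β-treated cells with a second siRNA pair (set 2), which are given here only as reference values. All groups come from 1 cell line.

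FAIRE-seq recovers DNA that is not held in nucleosomes from formaldehyde-fixed cells, and the deposited data are lists of called regions, 1 list a group. The list of set 1 held 22516 regions and that of siControl with TGF-β held 28754. Because a longer list finds more partners, the siControl list was ranked by the -log10 q-value of its regions and its first 22516 were kept, so that 45032 regions were compared out of 88442 in the 4 lists of the series. A region was shared if it overlapped a region of the other kept list by at least 1 bp and was otherwise in 1 list only. The ranking left out 6238 siControl regions, of which 2428 (38.9%) overlapped a region of set 1. The last kept and the first left-out siControl regions had the same -log10 q-value of 11.1, with 24 fragments at the summit in each. With 1 list a group, no difference between the groups has a replicate check and no p-value was computed.

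Etv4 and Etv5 are ETS-family transcription factors of the PEA3 group that act downstream of receptor tyrosine kinases, Ras and ERK, and bind DNA at a core of GGAA. ETS factors often sit beside AP-1, the dimer of Fos and Jun proteins, in enhancers that respond to Ras. TGF-β signals through Smad proteins and drives epithelial cells towards a mesenchymal state, in which enhancers of matrix, protease and adhesion genes are used in a different way.

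Sequences are printed for 10 regions that the results below turn on: the strongest regions found in 1 list only, the distal and proximal regions upstream of Mmp13, and regions at Junb, Osmr, Etv5 and Ets1, these last chosen after their values were seen. They come from GRCm38, stretches inside annotated exons were left out, and at most 300 bases are given. Capitals mark matches to the AP-1 letters TGANTCA and to the ETS letters CNGGAAGT on either strand. The strongest regions at Sfi1, over a high local background, and at Gm10719 and Gm11168, in repeated sequence, were not printed.
Synj2 upstream, siControl only, chr17:6006240-6006471, plus strand: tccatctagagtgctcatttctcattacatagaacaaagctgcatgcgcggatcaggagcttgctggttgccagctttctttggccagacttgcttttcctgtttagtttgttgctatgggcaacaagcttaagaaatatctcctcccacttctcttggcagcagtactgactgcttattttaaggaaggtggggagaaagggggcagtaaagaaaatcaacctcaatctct
Prkg2 promoter, siControl only, chr5:98943835-98944093, plus strand: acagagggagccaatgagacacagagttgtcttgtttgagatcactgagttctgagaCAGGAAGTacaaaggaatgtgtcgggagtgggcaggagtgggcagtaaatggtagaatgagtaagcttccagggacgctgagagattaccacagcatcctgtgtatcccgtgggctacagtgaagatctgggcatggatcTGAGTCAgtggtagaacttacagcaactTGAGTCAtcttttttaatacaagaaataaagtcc
Mmp13 distal, siControl only, chr9:7240142-7240329, plus strand: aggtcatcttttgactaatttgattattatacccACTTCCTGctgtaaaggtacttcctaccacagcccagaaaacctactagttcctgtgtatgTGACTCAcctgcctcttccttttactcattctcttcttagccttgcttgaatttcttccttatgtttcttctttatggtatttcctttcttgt
Mmp13 proximal, shared, chr9:7258544-7258843, plus strand: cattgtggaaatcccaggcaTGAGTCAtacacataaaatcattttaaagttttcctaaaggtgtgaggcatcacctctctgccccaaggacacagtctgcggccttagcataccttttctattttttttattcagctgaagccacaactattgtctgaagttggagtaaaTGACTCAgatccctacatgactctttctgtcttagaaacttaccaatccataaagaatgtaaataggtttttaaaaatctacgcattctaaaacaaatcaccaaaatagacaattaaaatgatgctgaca
Junb upstream, siControl only, chr8:84981119-84981389, plus strand: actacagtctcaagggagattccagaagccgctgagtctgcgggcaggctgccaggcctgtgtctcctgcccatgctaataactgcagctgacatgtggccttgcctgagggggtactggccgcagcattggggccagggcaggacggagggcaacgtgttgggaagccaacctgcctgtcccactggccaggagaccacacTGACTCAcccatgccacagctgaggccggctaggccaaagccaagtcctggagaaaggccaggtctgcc
Osmr intron, shared and lower with set 1, chr15:6849997-6850215, plus strand: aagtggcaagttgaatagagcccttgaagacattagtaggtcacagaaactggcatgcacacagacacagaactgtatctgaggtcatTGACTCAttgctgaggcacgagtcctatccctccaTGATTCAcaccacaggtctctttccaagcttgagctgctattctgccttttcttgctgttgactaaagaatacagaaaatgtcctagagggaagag
Etv5 intron, shared and higher with set 1, chr16:22389327-22389468, plus strand: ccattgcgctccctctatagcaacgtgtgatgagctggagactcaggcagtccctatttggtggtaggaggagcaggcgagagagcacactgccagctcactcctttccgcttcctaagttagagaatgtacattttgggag
Nol12 promoter, set 1 only, chr15:78934815-78934932, plus strand: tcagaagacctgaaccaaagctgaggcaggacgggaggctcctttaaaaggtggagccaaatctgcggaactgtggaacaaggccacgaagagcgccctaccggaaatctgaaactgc
Ccn4 upstream, set 1 only, chr15:66867416-66867629, plus strand: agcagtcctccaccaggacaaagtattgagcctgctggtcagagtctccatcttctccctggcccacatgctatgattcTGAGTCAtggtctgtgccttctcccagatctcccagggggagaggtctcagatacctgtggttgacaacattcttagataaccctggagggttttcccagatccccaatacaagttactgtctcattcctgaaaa
Ets1 intron, set 1 only, chr9:32749841-32750056, plus strand: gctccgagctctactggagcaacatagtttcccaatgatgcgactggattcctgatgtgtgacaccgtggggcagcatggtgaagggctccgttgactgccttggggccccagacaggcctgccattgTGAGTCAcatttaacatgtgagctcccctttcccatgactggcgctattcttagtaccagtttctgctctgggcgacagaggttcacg
The Prkg2 promoter printed above held 2 matches to AP-1 and 1 to ETS, the distal Mmp13 region 1 of each, and the proximal Mmp13 region 2 to AP-1 and none to ETS. The printed parts of the Synj2, Nol12 and Etv5 regions held neither. In the 300 bp around the summit, which the motif shares below use, the Nol12 region had ETS letters and the Etv5 region AP-1 letters. These matches lay outside the printed parts. A match is a string of letters and was not tested as a binding site.

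The libraries were of similar depth. From the lowest local background, the depth was estimated, in units of 1000000 reads, at 16.3 for siControl with TGF-β and 17.3 for set 1, a ratio of 1.06. Untreated siControl came to 15.3 and set 2 to 20.7 on the same scale. Regions at the promoters of 6 of 10 mammary epithelial marker genes were present in the siControl list and of 5 of 10 in the set 1 list (Krt8, Krt18, Krt14, Cldn4 and Elf3 in both, Grhl2 in siControl alone), and at 0 of 9 promoters of genes of other cell types in either list. Promoters of Cdh1, Epcam, Krt5 and Esrp1 had a region in neither list. FAIRE-seq does not measure the knockdown itself. In a pool of cells, a region open in fewer cells and a region less open in each cell cannot be told apart.

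Most regions were found with both siRNAs. In the siControl list 16658 regions (74.0%) were shared and 5858 (26%; 95% Wilson interval 25.4 to 26.6) were in that list only. In the set 1 list 16690 were shared and 5826 (25.9%; 25.3 to 26.5) were in that list only. The equal length ties these counts to each other, so neither says that regions were lost or gained on balance. Of the set 1 regions, 3432 (15.2%) overlapped no siControl region of any rank, and the other 2394 overlapped a siControl region that the ranking had left out. All intervals cover counting error only.

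Regions in 1 list only were weak ones. The median number of fragments at the summit was 22 for siControl only against 28 for shared siControl regions, and 19 for set 1 only against 24 for shared set 1 regions. Median fold enrichment, the summit signal over the local background, was 8.35 and 9.36 in siControl and 7.15 and 8.21 in set 1. With 11 to 17 fragments 61.1% of siControl regions and 52.5% of set 1 regions were in 1 list only. The shares were 27% and 16.7% with 23 to 27 fragments, and 1.31% (13 of 992) and 1.70% (6 of 352) with 43 or more. A region strong with one siRNA was thus nearly always called with the other, and the one-sided regions described below come mainly from the lower end of both lists.

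**Figure D1:**
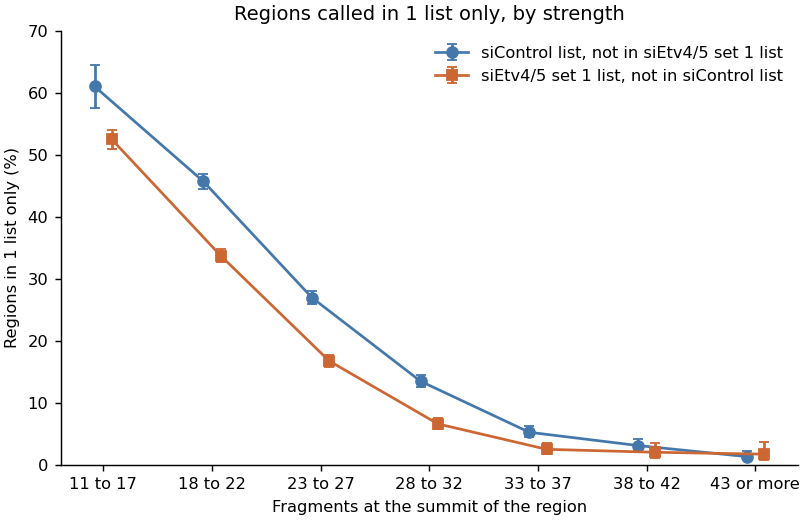
Share of regions called in 1 list only (y axis, percent) by the number of fragments at the summit (x axis) for the siControl list (circles) and the siEtv4/5 set 1 list (squares), both with TGF-β at equal list length; bars are 95% Wilson intervals. The share was 61.1% and 52.5% in the weakest class and 1.31% and 1.70% in the strongest.

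Shared regions were weaker with set 1 on the whole. Median fold enrichment over the 16658 shared regions was 9.36 in siControl and 8.22 in set 1, and the median log2 ratio of set 1 to siControl was -0.20 (quartiles -0.38 and -0.02). Fold enrichment was lower with set 1 in 77.3% of them. It was at least 1.5 times lower in 1256 (7.54%) and at least 1.5 times higher in 20 (0.12%). The ranking bears on this balance, since it left out weak siControl regions and none of set 1. With the full siControl list 19086 regions were shared, 1256 of them (6.58%) at least 1.5 times lower and 109 (0.571%) at least 1.5 times higher, with a median log2 ratio of -0.16. The 2428 shared regions that the ranking had left out supplied 89 of the higher ones and 0 of the lower ones, and their median was 0.12. Summit fragments scaled to depth gave a median log2 ratio of -0.29 and were lower in 82.9% and at least 1.5 times lower in 17.2%, and the local background of the same regions had a median log2 ratio of -0.10, whose part in the result was not tested.

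This lower level was found in every kind of region examined. The median log2 ratio was -0.19 at promoters, -0.20 in introns and -0.20 between genes. Distal regions, those more than 2 kb from a transcription start site (TSS), gave -0.20 with the ETS letters and -0.20 without them, and -0.20 with and -0.19 without the AP-1 letters. From the fifth of regions poorest in G and C to the richest the medians lay between -0.20 and -0.19. The ratio differed more with strength: it was -0.10 for regions with 18 to 22 siControl fragments and -0.32 for those with 43 or more, where the siControl count both sorts the regions and enters the ratio.

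**Figure D2:**
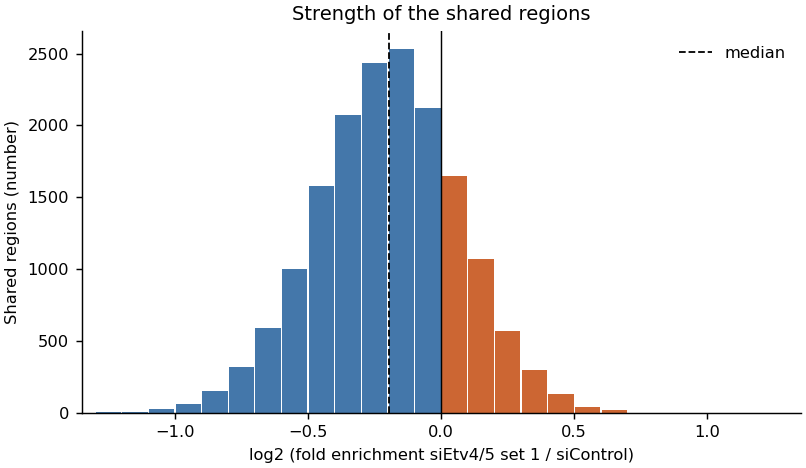
Number of shared regions (y axis) by the log2 ratio of fold enrichment, siEtv4/5 set 1 over siControl, both with TGF-β (x axis, classes 0.1 wide). Blue bars are lower and orange bars higher with set 1; the dashed line is the median of -0.20.

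The shared regions with the largest ratios had at least 30 fragments in 1 of the 2 libraries. Osmr encodes a subunit of the receptor for oncostatin M. A region in its intron, 24.9 kb inside the gene (printed above), had a fold enrichment of 7.85 in untreated cells, 13 with TGF-β and siControl, 5.54 in set 1 cells and 6.07 in set 2 cells. The summit fragments were 42 with siControl and 17 with set 1, and the depth-scaled ratio was 0.381 (exact 95% interval 0.203 to 0.684, counting error only). The promoter of Nelfcd, a subunit of the negative elongation factor that pauses RNA polymerase, stood at 16.6, 20.4, 8.61 and 10.9 in the same order, with 55 fragments in siControl and 21 with set 1. At both, siControl with TGF-β was the highest of the 4 libraries and set 1 the lowest.

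The promoter of Fzd1, a Wnt receptor, had a fold enrichment of 7.81 untreated, 12.5 with TGF-β and 5.51 with set 1, and was not called with set 2. A region 53.1 kb from Gm27648 and 176 kb from Ackr3, the nearest protein-coding gene, had 12.1, 16.2, 6.84 and 8.93 in the order untreated, TGF-β, set 1 and set 2. At the promoter of Napg, a SNAP protein of vesicle fusion, the values were 9.92, 12.8, 5.37 and 8.25 in that order. These regions also had their highest value in siControl with TGF-β, which is part of how they were chosen, since a high siControl value raises the ratio.

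In the other direction, 2 of the 5 largest ratios came from neighbouring siControl regions near Gm5466 that overlap the same set 1 region, with fold enrichments of 6.55 and 6.78 in siControl and 13.2 in set 1. This region stood at 12.7 in untreated cells and 12.5 with set 2, so the siControl library with TGF-β was the low one. A region 0.896 kb inside Fosb, an AP-1 subunit, had 7.33 (23 fragments) in siControl and 11.6 (30 fragments) with set 1, 6.86 in untreated cells and no call with set 2. Regions nearest the protein-coding genes Otogl and Bcar3, an adaptor in integrin signalling, went from 7.65 to 12.2 and from 7.09 to 11.1. The interval of the depth-scaled fragment ratio included 1 at Fosb (0.690 to 2.21), Otogl (0.774 to 2.55) and Bcar3 (0.917 to 2.91).

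The strongest one-sided regions include promoters and regions in high background. In siControl only, with no set 1 region at any rank, the top 2 lay within the Sfi1 locus with 77 and 66 fragments over a background of 26.7 and 18.8, hence a fold enrichment of 2.81 and 3.38. Set 1 had its own region in the same locus, with 63 fragments over 22. Next in siControl was a region 1.24 kb upstream of Synj2, an inositol phosphatase of membrane traffic, with a fold enrichment of 11.2 (51 fragments) against 7.56 in untreated cells and no call with either siRNA set. The promoter of Prkg2, a cGMP-dependent protein kinase, had 11.7 (47 fragments), 9.11 in untreated cells, 4.81 with set 2 and no call with set 1. A region 75.5 kb from Ifne, with 47 fragments, again lay on a high background (11.3) and was absent from the other 3 lists.

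On the side of set 1, the promoter of Nol12, which encodes a nucleolar protein, had a fold enrichment of 10.6 (44 fragments), against 7.34 in untreated cells and 6.42 with set 2, and was not called in siControl with TGF-β. A region 23.8 kb upstream of Ccn4, a matricellular protein linked to Wnt signalling, had 7.76 (39 fragments) with set 1 and 4.55 with set 2, and no call in either siControl library. The others, at Gm10719 and Gm11168 at the start of chromosome 9, lay in windows that were 91.3% and 95% repeat. Ccn4 was the only one of these 5 set 1 regions called with both siRNA sets and in neither siControl library.

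The one-sided promoters of protein-coding genes with the highest fold enrichment lay higher in siControl than in set 1. In siControl only the highest were those of Lyar, Fcho1, Aldh4a1, Mfsd14b and Wdr74, with fold enrichments of 14.8, 13.9, 13.8, 13.8 and 13.6 from 29 to 34 fragments. All of them were called in untreated cells, at 8.80 to 11.4, and those of Lyar, Aldh4a1 and Mfsd14b with set 2 as well. In set 1 only they were those of Rnaseh1, which degrades RNA in RNA-DNA hybrids, Dna2, a nuclease-helicase of DNA replication, Ipo4, a nuclear import receptor, Ccdc136, and Rfc5, a subunit of the clamp loader, with 11.4 to 11.6 from 25 or 26 fragments. Set 2 called those of Dna2, Ipo4, Ccdc136 and Rfc5, and untreated cells those of Ipo4 and Rfc5.

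Outside promoters the highest fold enrichment in siControl only was 15.7 (36 fragments) in a region 104 kb from Cntn1, a neuronal adhesion molecule, with 10.7 in untreated cells and no call with either siRNA set. In set 1 only it was 13.9 (30 fragments) in an intron of B230307C23Rik, with 8.31 untreated and 11.8 with set 2. Both lay over a low local background, 1.36 and 1.24 fragments.

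Promoters were less common on both sides. The middle of the region lay within 2 kb of a TSS in 40.8% of shared siControl regions, in 28.8% (27.6 to 29.9) of siControl only and in 26.9% (25.8 to 28.1) of set 1 only. Introns took 30.3%, 37.3% and 36.6% in that order, stretches between genes 27%, 31.4% and 34.0%, and exons 1.90%, 2.56% and 2.42%. Distal regions of all 3 kinds lay a median of 15.2, 15.7 and 15.7 kb from the nearest TSS. One-sided promoters were also poorer in CpG: 71.0% of shared promoter regions had an observed to expected CpG ratio of 0.6 or more, against 53.7% for siControl only and 51.4% for set 1 only. Both one-sided classes thus stood on the same side of the shared class, and the difference between them was small beside it. These location shares were not compared at matched strength.

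AP-1 letters in the 300 bp around the summit of distal regions followed the same order, but other motif letters did not all do so. TGANTCA was present in 62.6% of shared distal regions, 48.0% (46.5 to 49.5) of siControl only and 47.0% (45.5 to 48.5) of set 1 only, against 8.84% of all 300 bp windows of the genome. The 3432 set 1 regions with no siControl partner of any rank had AP-1 letters in 41.2% of their distal members. At 18 to 22 fragments the AP-1 shares were 54.6% in shared siControl regions and 45.0% in siControl only. They were 59.4% in shared set 1 regions and 43.5% in set 1 only. One-sided regions thus remained below shared regions of the same library at matched fragment counts.

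ETS letters differed little between the sides. CNGGAAGT occurred in 8.42% of shared distal regions, 6.97% (6.24 to 7.79) of siControl only and 7.35% (6.60 to 8.17) of set 1 only, against 3.80% of genome windows. Among promoter regions the shares were 16.0%, 12.9% and 11.5%. Distal regions with both AP-1 and ETS letters made up 5.37% of shared regions, 3.38% of siControl only and 3.55% of set 1 only. The intervals of the one-sided classes overlapped in each case. The size of the distance from the shared class depended on the letters: in distal regions it was -1.44 and -1.04 percentage points (siControl only and set 1 only) with CNGGAAGT, -4.26 and -2.89 with the looser CNGGAA, and -0.0323 and 0.0259 with the stricter ACCGGAAGT.

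Among other motifs in distal regions, TEAD and NFY letters were less common in siControl only than in set 1 only, with intervals that did not meet. ACATTCC, the TEAD letters, were in 7.55% (6.79 to 8.39) of distal siControl-only regions, 9.67% (8.82 to 10.6) of set 1 only and 9.97% of shared regions. ATTGGNT, the letters of NFY, were in 9.85% (8.98 to 10.8), 12.0% (11.1 to 13.0) and 11.3%. For both, the siControl-only share was the lowest of the classes. Among set 1 regions with no siControl partner of any rank, the class more like siControl only, the shares were 8.30% (7.28 to 9.44) for TEAD and 11.6% (10.5 to 13.0) for NFY, and these intervals met those of siControl only. TGTGGT, the RUNX letters, stood at 28.5% and 29.4% on the sides and 32.6% in shared regions. At promoters NFY letters were in 23.6% of shared regions and in 11.7% and 12.6% of the one-sided classes, and GGGCGG, the SP and KLF letters, in 60.6%, 48.1% and 47.4%. All motif letters were read on both strands, and of 32851 RefSeq promoters (250 bases before to 50 after the start) 7.81% held the AP-1 and 9.53% the ETS letters.

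**Figure D3:**
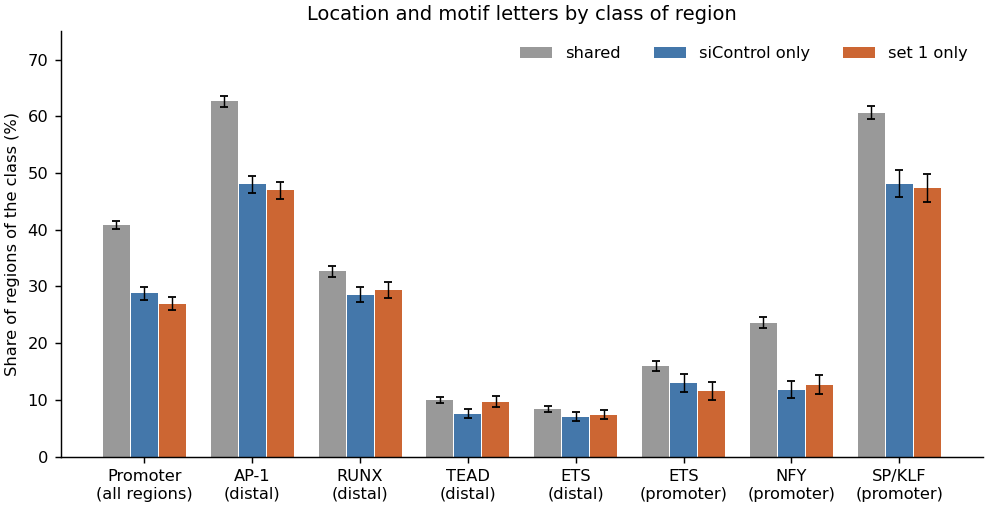
Share of regions (y axis, percent) that are promoters, or that hold the letters of a motif within 300 bp around the summit, for shared siControl regions (grey), siControl only (blue) and set 1 only (orange); bars are 95% Wilson intervals, and distal and promoter regions are shown apart. The 2 one-sided classes lie mostly close together and below the shared class. In distal regions siControl only and set 1 only have 48.0% and 47.0% against 62.6% for AP-1, and 7.55% and 9.67% against 9.97% for TEAD.

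Regions were assigned to the nearest protein-coding TSS within 100 kb. Of 11836 genes with a region, 3993 had one in siControl only, 3927 one in set 1 only, and 1301 had both. Promoters of 6554 protein-coding genes held a region in both lists, 1038 in siControl only and 936 in set 1 only, 523 of the last with no siControl region at any rank. These 1301 genes carried one-sided regions of both kinds.

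The genes with the largest surplus of siControl-only regions were Inhbb, Sec14l1, Tgm2, Cmip and Tcim. Inhbb encodes the βB subunit of the TGF-β family ligands activin and inhibin, and around it lay 6 regions in siControl only, 1 in set 1 only and 1 shared. The strongest, 46.7 kb from the TSS, had 30 fragments and a fold enrichment of 10.2, 8.81 untreated and no call with either siRNA set. Tgm2 encodes a transglutaminase that crosslinks matrix proteins. Its promoter, 0.069 kb from the TSS, stood at 9.99 (22 fragments) in the TGF-β-treated siControl library and at 8.68 in that of set 2, without a region untreated or after set 1, and 2 further regions in its locus were in set 1 only, each over a siControl region of lower rank. Cmip, a signalling adaptor, had 5 regions in siControl only, among them the promoter at 10.9 (31 fragments), which was called in no other library.

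Arhgap22, Arntl, Ccdc80, Dock9 and Ets1 had the largest surplus of set 1-only regions. Ets1 is itself an ETS transcription factor, and 5 regions around it were in set 1 only and none in siControl only. Its promoter had a fold enrichment of 5.18 untreated, 5.68 with TGF-β (26 fragments), 5.63 with set 1 (30 fragments) and 4.62 with set 2, and is counted as set 1 only because its siControl region fell below the rank limit. The region 53.6 kb inside the gene, printed above, had 7.06 (23 fragments) and was called with set 1 alone. So 4 of the 5 set 1-only regions at Ets1 had a siControl region of lower rank. Likewise all 5 at Ccdc80, a matrix-associated protein, overlapped a lower-ranked siControl region, and only at Arntl, the clock factor also called Bmal1, were all 5 absent from the siControl list at any rank and from the untreated and set 2 lists.

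Neighbouring one-sided regions formed runs with no shared region between them. In siControl the 3 longest included 6 regions over 415 kb at Trps1, a GATA-type repressor (23 to 29 fragments), and 5 over 55.3 kb at Tmem241 and Riok3 (19 to 25). In set 1 they included 6 regions over 691 kb at Lmx1b, Mvb12b and Pbx3 (15 to 22), and 5 over 165 kb at Map3k20 and Cdca7 (15 to 20). Runs of 4 or more numbered 40 in siControl and 58 in set 1. How many such runs would arise from one-sided regions spread without clustering was not tested.

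Around the targeted genes 5 of 7 siControl regions were shared, close to the 74.0% of all regions. The Etv4 promoter had a fold enrichment of 9.60 untreated, 12.7 with TGF-β (46 fragments), 10.8 with set 1 (35 fragments) and 8.39 with set 2. A region 28.1 kb upstream had 11.4 (25 fragments) with TGF-β and was not called with set 1, while set 2 had 8.56 and untreated cells 7.50. The Etv5 promoter stood at 7.76, 9.12, 9.44 and 8.31 in the order untreated, TGF-β, set 1 and set 2. In an intron of Etv5, 47.1 kb from the nearest TSS, the region printed above had 8.34 (17 fragments) with TGF-β and 12.9 (31 fragments) with set 1, and no call untreated or with set 2. Its depth-scaled fragment ratio of 1.72 had an interval of 0.921 to 3.31. Near the start of Etv5, a region at 6.40 (27 fragments) was called in the TGF-β-treated siControl library alone, and one at 6.41 (20 fragments) was in set 1 only, with 7.87 untreated and 5.50 with set 2.

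At Mmp13, which encodes collagenase-3, a protease that cuts fibrillar collagen, 2 regions of the kept siControl list lay upstream. The distal one, 32.3 kb from the TSS, had 7.36 (17 fragments) untreated and 6.88 (26 fragments) with TGF-β, and was called with neither siRNA set. The proximal one, 13.8 kb from the TSS, had 8.75, 6.60 (28 fragments), 6.32 (26 fragments) and 6.04 in the order untreated, TGF-β, set 1 and set 2, and thus differed little between siControl and set 1 (ratio 0.874, interval 0.493 to 1.55). Nearer the gene, 8.97 kb upstream, lay a further siControl region at 5.32 (22 fragments), which ranked below the limit. It was called with neither siRNA set, since the full list of each set held only the proximal region at this locus. The list alone cannot tell how far below the limit of calling the distal region and this further region lay with set 1.

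Other loci of the epithelial to mesenchymal transition showed no single direction. Cdh1 encodes E-cadherin, and its intronic region at 16 kb had 6.96 untreated, 9.36 with TGF-β (33 fragments) and 5.60 with set 1 (22 fragments), with no call with set 2. The region 42.1 kb upstream of Cdh1 had 8.64, 10.3, 5.57 and 7.53 in the order untreated, TGF-β, set 1 and set 2. Beside the start of Fn1, which encodes fibronectin, the region had 8.38, 8.49, 6.12 and 5.49 in the same order, and the region 38.5 kb upstream 11.5, 9.02, 9.24 and 6.78. Cdh2, which encodes N-cadherin, had 1 weak intronic region in siControl only (21 fragments). In set 1 only it had an intronic region (16 fragments), which overlapped a lower-ranked siControl region of 17 fragments, and a region 13.0 kb upstream (17 fragments). At Esrp2, a splicing regulator of epithelial cells, the promoter had 6.22 in siControl and 6.51 in set 1 but ranked below the limit in siControl, and a region 1.32 kb upstream with 7.83 (29 fragments) was in siControl only. The Gapdh promoter, a control locus, had 8.90, 8.68, 7.44 and 7.88, in the same order.

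The 15 gene lists were read against all genes, for which 25.3% of siControl regions and 25.1% of set 1 regions were in 1 list only. Near the AP-1 and ATF genes 14 of 47 siControl regions (29.8%, 18.7 to 44.0) were in siControl only, against 5 of 39 set 1 regions (12.8%, 5.60 to 26.7) in set 1 only. It was one of 2 lists in which the siControl share was the larger, the other being the ribosomal proteins (7 of 40, 17.5%, and 4 of 37, 10.8%). Cell cycle genes had few one-sided regions (4 of 42, 9.52%, and 9 of 47, 19.1%), and Wnt and Notch genes had many on both sides (22 of 71, 31.0%, and 27 of 76, 35.5%). The lists held 37 to 118 regions a side. Their intervals left out the share of all genes for the cell cycle list in siControl (below it) and, in set 1, for Wnt and Notch (above it) and ribosomal proteins (below it), and contained it for the other lists, AP-1 and ATF among them. The first 2 rested on the assignment: the cell cycle share in siControl was 20% with the gene body and 50 kb upstream, and the Wnt and Notch share in set 1 was 22.9% with the TSS within 20 kb.

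**Figure D4:**
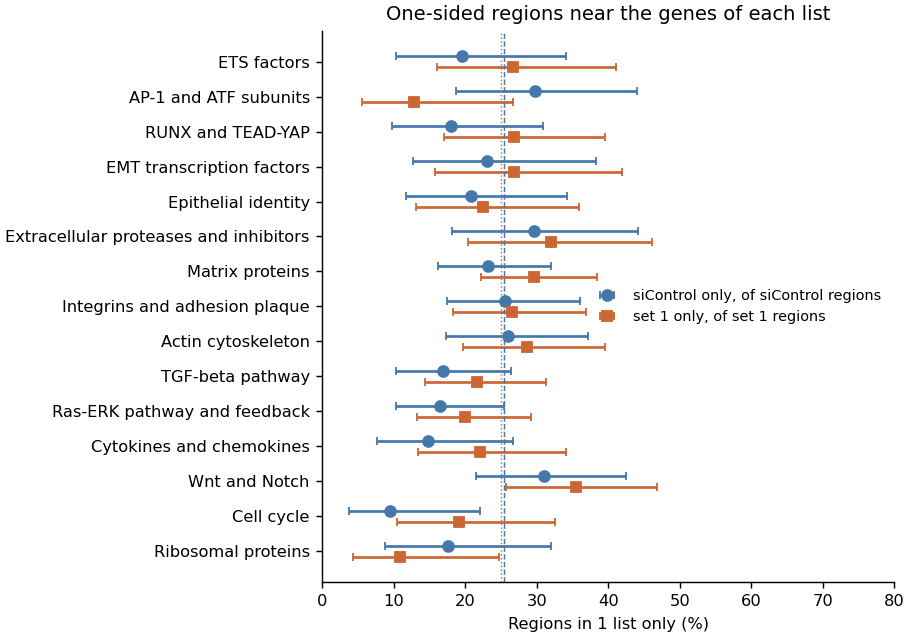
Share of regions in 1 list only (x axis, percent) near the genes of 15 lists, for siControl only out of siControl regions (circles) and set 1 only out of set 1 regions (squares); bars are 95% Wilson intervals, and the dashed and dotted lines are all genes, 25.3% and 25.1%. AP-1 and ATF subunits and ribosomal proteins are the lists in which the siControl share is the larger.

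Junb encodes an AP-1 subunit. Its promoter had a fold enrichment of 5.39 (38 fragments) and the region 2.54 kb upstream 4.77 (38 fragments) in siControl with TGF-β, and neither was called with either siRNA set. The upstream region, printed above, was also called in untreated cells at 4.14. Fosl1, another AP-1 subunit, had 6.54 (37 fragments) 1.3 kb inside the gene in siControl and 4.74 with set 2, with no call in set 1. The Fos promoter instead had 8.59 (26 fragments) with set 1 and was called in no other library. The promoter of Ier2, an immediate early gene, was in siControl only with 6.34 (33 fragments), and that of Myc in set 1 only with 5.12 (35 fragments). AP-1 and other early-response promoters thus appeared on both sides.

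Among 41 siControl and 45 set 1 regions near ETS genes, 8 and 12 were in 1 list only, and the 33 shared ones had a median log2 ratio of -0.14. Ets2 had a region 27.2 kb upstream in siControl only, at 10.4 (28 fragments) and at 6.41 with set 2. The promoter of Etv3, an ETS repressor, was shared and stood at 8.83 untreated, 14.8 with TGF-β (31 fragments) and 6.56 with set 1 (14 fragments), with no call with set 2.

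Shared regions near the genes of the lists were named after their values were seen. Near epithelial identity genes 38 regions were shared. Of these, 8 (21.1%) were at least 1.5 times lower and 0 higher, against 7.40% lower among all genes, and their median log2 ratio was -0.31 against -0.19. This share was the highest of the 15 lists. The others ran from 2.44% (RUNX and TEAD-YAP, 1 of 41) to 13.3% (transcription factors of the transition, 4 of 30), and no interval is given for these shares. With the full siControl list the epithelial identity counts were 8 lower and 0 higher of 43 (18.6% lower, against 6.51% near any gene). By nearest gene, 1 each belonged to Tjp1, a scaffold of tight junctions, to Dsp and Pkp3, of desmosomes, and to Cdh1, Cldn1 and Epcam, and 2 to Cldn4. The region near Cldn1, a claudin, had 10.5, 11.9, 7.19 and 8.44 in the order untreated, TGF-β, set 1 and set 2, and the one 12.4 kb upstream of Cldn4 had 10.1 (43 fragments) with TGF-β and 6.28 (27 fragments) with set 1 and no call elsewhere. In 8 of 8 the siControl value with TGF-β was the highest of the libraries in which the region was called, which is again part of how they were chosen. One-sided regions near this list were even, 10 of 48 and 11 of 49, and with the full lists their shares, 34.8% and 12.2%, were near those of all regions, 33.6% and 15.2%. Epcam (22.4 kb upstream, 35 fragments) and Grhl2 (1.5 kb inside, 30 fragments) had theirs in siControl only.

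Promoters of Id and Ccn genes appeared on both sides. The promoter of Id1, an inhibitor of bHLH factors and a target of BMP signalling, had 6.17 untreated and 9.06 (36 fragments) with TGF-β and no call with either siRNA set, while that of Id3 had 7.71 (31 fragments) with set 1, 4.87 (18 fragments) in siControl and 5.68 with set 2. Ccn1, a matricellular protein induced by YAP, had its promoter in siControl only at 7.34 (36 fragments). That of its relative Ccn2 had 6.97 (31 fragments) with set 1 and 5.17 (21 fragments) in siControl. The Vim promoter, of vimentin, had 8.30 (32 fragments) with set 1 and 6.02 (24 fragments) in siControl. At Id3, Ccn2 and Vim the siControl region was present at a lower rank. Over all their regions, Ccn1 had 2 in siControl only and 3 in set 1 only, Ccn2 0 and 4, Id1 2 and 1, and Id3 0 and 1.

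Proteases and matrix genes were divided in the same way. Adamts1 and Adamts4, secreted proteases of proteoglycans, had regions in siControl only, at 2.27 kb inside the first (9.48, 38 fragments) and at the promoter of the second (8.19, 33 fragments, and 6.88 with set 2). Near Lama5, a laminin chain, a region at 6.24 (37 fragments) with ETS letters was in siControl only, and one near Tnc, tenascin C, at 12.1 (26 fragments) in set 1 only. The protease list had 13 of 44 and 15 of 47 regions on the 2 sides, and the matrix list 25 of 108 and 35 of 118.

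Adhesion and cytoskeleton lists lay near the share of all genes. In siControl the TGF-β pathway and Ras-ERK shares were lower and the Wnt and Notch share was higher. The intervals of all these lists contained the share of all genes. Integrin and adhesion plaque genes had 21 of 82 (25.6%) and 22 of 83 (26.5%) regions in 1 list only, with Itgb4 (31 fragments) in siControl and Ptk2, which encodes focal adhesion kinase (38 fragments with set 1, 21 in siControl), in set 1. TGF-β pathway genes had 14 of 83 (16.9%) and 19 of 88 (21.6%), among them a region 95.6 kb from Tgfb2 (12.4, 37 fragments) in siControl only and one 10.3 kb inside Acvr1 (10.1 with set 1 and 7.08 in siControl) in set 1. The Ras-ERK list had 15 of 91 (16.5%) and 19 of 95, and in its shared part a region 46.0 kb upstream of Tgfa, an EGF receptor ligand, had 8.05, 12.2, 6.61 and 6.82 in the order untreated, TGF-β, set 1 and set 2. The other lists had 9 of 50 and 15 of 56 for RUNX and TEAD-YAP, 9 of 39 and 11 of 41 for transcription factors of the transition, 19 of 73 (26%) and 22 of 77 for actin genes, and 8 of 54 (14.8%) and 13 of 59 for cytokines. The assignment of regions to genes moved these shares: for Ras-ERK in siControl it was 25.8% with the gene body and 50 kb upstream.

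**Figure D5:**
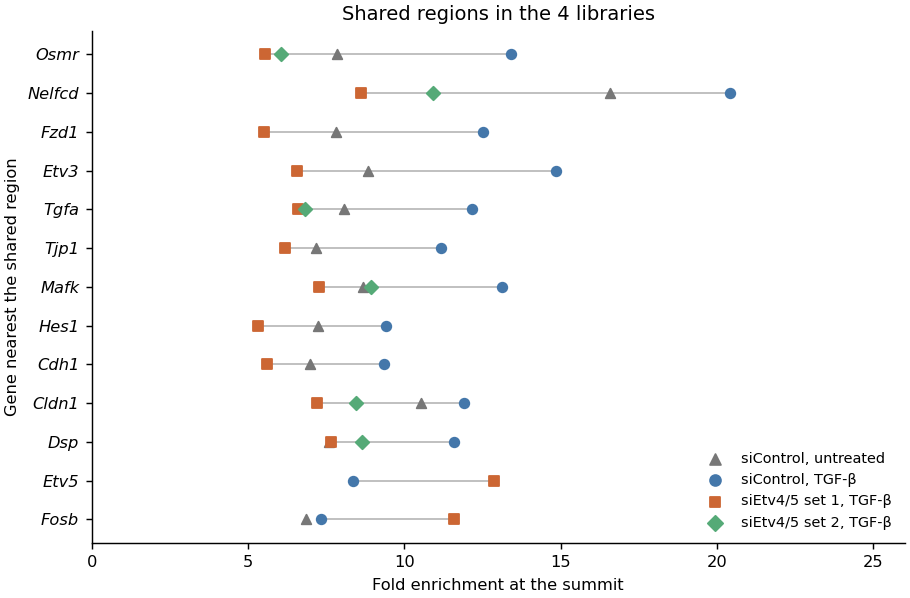
Fold enrichment at the summit (x axis) in the 4 libraries for 13 shared regions described in the text or in its gene lists, each named by the nearest gene (y axis) and sorted by the ratio of siEtv4/5 set 1 to siControl; a missing symbol means that no region was called, and the genes were chosen for their ratios. From Osmr to Dsp the circle, siControl with TGF-β, is the highest value, and at Etv5 and Fosb the square, set 1, is.

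The untreated and set 2 libraries took no part in choosing the regions. Of shared siControl regions 81.3% were called in untreated cells and 66.9% with set 2. Of siControl-only regions 41.5% (40.2 to 42.7) were called in untreated cells and 18.2% (17.2 to 19.2) with set 2, and 3039 (51.9%) in neither. Of set 1-only regions 38.6% (37.3 to 39.8) and 24.0% (22.9 to 25.1) were called, and 3003 (51.5%) in neither. At 18 to 22 fragments set 2 called 15.2% of siControl-only and 24.4% of set 1-only regions, but also 44.0% of the shared regions ranked by siControl and 53.1% of those ranked by set 1. The higher share for set 1 therefore appeared in shared regions as well. Of the 3432 set 1 regions with no siControl partner of any rank, the class more like siControl only, 30.2% were called in untreated cells. Set 2 called 17.2% (16.02 to 18.55) of this class, near the 18.2% of siControl only.

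One-sided shares differed between chromosomes. On chromosome 14, 227 of 594 set 1 regions (38.2%, 34.4 to 42.2) were in set 1 only and 125 of 492 siControl regions (25.4%) in siControl only. On chromosome 13 the siControl share was the larger, 32.5% against 29.0%, on chromosome 19 the shares were 23% and 19%, and on the X chromosome 39.4% and 54.0% of 132 and 174 regions. The local background of shared regions had a median log2 ratio of set 1 to siControl of 0.04 on chromosome 14 and -0.18 on chromosome 4. That the background differs between chromosomes stands beside these shares, and its part in them was not tested.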

How the data were processed

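FAIRE-seq libraries of 4 groups of EpRas cells were read on an Ion Proton. Per the methods and labels of the study, the authors trimmed reads to 36 bp, aligned them to mm10 with Bowtie 2 and called regions with MACS2 (2.1.0 in the submitters' processing notes) at a q-value limit of 0.0001. Independent cultures may have been pooled into the 1 list a group. The deposited columns used are fold enrichment at the summit (a ratio to the local background), -log10 p-value and -log10 q-value, and the summit position. The deposited score column gave no value reported here. The values are relative to local background, so a background that differs between libraries moves them.

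Lists were cut to 22516 regions by -log10 q-value and compared by 1 bp overlap. Summit fragments, taken as whole numbers, and local background were solved from fold enrichment, which adds 1 to both, and the Poisson -log10 p-value. Above its lowest level, the background came within 0.05 of a whole number of reads in a window of 10 kb. Depth came from the lowest background, the fragment length and a genome of 1.87 Gb. Regions were annotated with GENCODE genes on GRCm38 (mm10). A promoter lay within 2 kb of a TSS, genes were the nearest protein-coding ones within 100 kb, and motif letters were searched in 300 bp around the summit. Shares carry 95% Wilson intervals and fragment ratios exact ones, all covering counting error only; sequenced reads are not independent molecules. Python 3.11.15, NumPy 2.4.6, pandas 2.3.3, SciPy 1.17.1 and Matplotlib 3.10.9 were used, and the steps were tested on simulated data.

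The regions named are, by rule, the 5 one-sided regions a side with most fragments and no partner in the other full list, the 5 shared regions a direction with the largest ratio and at least 30 fragments in either library, the 5 genes a side with the largest surplus, the longest 3 runs, loci of the study, and 2 examples a gene list and side. Regions of highest fold enrichment, sequences beyond the strongest 2 a side and those at Mmp13, and shared regions of the gene lists were chosen after their values were seen. The members and the 15 gene lists were chosen with earlier results of these data known. A few regions that these rules name are not reported here.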

Additional observations from a re-analysis of the deposited data

How the results depend on the processing

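No paired analysis was possible because each group had 1 list and no replicate numbers were shared. Of the main values under the alternatives run, 34 kept within the interval or limit of the main value, 33 moved and 1 changed direction; of the other values, 1093 kept and 110 moved. With the full lists the one-sided shares were 33.6% for siControl and 15.2% for set 1, by construction of a longer siControl list, and set 1 had the same 15.2% when only overlap with the full siControl list counted. They were 36.17% and 36.15% with the top 10000 regions, 28.3% and 28.1% ranked by fold enrichment, and 24.4% and 24.3% with a partner allowed within 500 bp. The lower promoter share of one-sided regions (siControl only and set 1 only, in points) was -13.5 and -15.5 with promoters of 1 kb, -9.44 and -11.5 with 5 kb, and -13.8 and -12.1 with the full lists. The log2 ratio of shared regions was -0.29 by depth-scaled fragments, with 82.9% lower and 17.2% at least 1.5 times lower, and -0.16, 71.3% and 6.58% with the full lists. The AP-1 difference of siControl-only from shared distal regions was -12.4 points in 150 bp, -10.7 with the full lists (-20.2 for set 1 only), -9.59 at 18 to 22 fragments and -8.96 at 23 to 27. The ETS difference was -2.11 for set 1 only with the full lists, -0.338 for siControl only at 23 to 27 fragments, -4.26 and -2.89 with CNGGAA, and -0.0323 and 0.0259 with ACCGGAAGT, where set 1 only changed direction and the cause was not tested. With the full lists the epithelial identity list had 34.8% in siControl only and 12.2% in set 1 only, near the shares of all regions, and the siControl share was the larger for all 15 lists. At equal length the AP-1 and ATF list had 25.7% against 11.7% with the gene body and 50 kb upstream and 32.4% against 11.1% with the TSS within 20 kb. Of the 68 set 1-only regions named by rule, 28 had no partner in the full siControl list. The lists hold no value for a region that was not called, so how far it lay under the limit was not measured.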
